A study of Mus musculus with 22 samples.

Results

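The genes described here are 10 genes of the integrated stress response (ISR), chosen by symbol from the table of read counts: the transcription factors Atf4, Atf5, Atf3 and Ddit3, their enzyme and regulator targets Asns, Trib3, Chac1 and Sesn2, and the secreted hormones Fgf21 and Gdf15. They were 10 of 55573 genes in the table, and all 10 were among the 14062 genes with a mean of at least 10 counts per library, the set that was tested. They were read in poly(A)-selected RNA from the livers of 22 C57BL/6 mice, each 3 months old and each the source of a single library. Cre mice were FlcnWT/WT; Albumin-cre+/- and served as controls, so that they carried the same Albumin-driven Cre as the mutants, and liver-Flcn-/- mice were Flcn f/f; Albumin-Cre, with exon 7 of Flcn removed where the albumin promoter is or has been active, that is in hepatocytes and in cells that arise from the same progenitors, which include bile duct cells, while other liver cells are not targeted. Mice stayed on chow with 10 kcal % fat (6 Cre and 5 liver-Flcn-/- livers) or received, from 6 weeks of age and for 6 weeks, a methionine- and choline-deficient (MCD) diet (5 Cre and 6 liver-Flcn-/- livers), which also differs from chow in other components such as sucrose. The libraries held between 13751347 and 21144388 gene counts, and levels are given as CPM, the counts divided by the TMM-scaled size of their library. The question each comparison asked was whether a gene's difference was larger than the spread between livers, by the quasi-likelihood test of edgeR (adjusted p, after Benjamini and Hochberg, across every tested gene), and a gene is said to rise, fall, be higher or be lower where the adjusted p was under 0.05.

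In the ISR, kinases that sense amino acid shortage (GCN2), unfolded protein in the endoplasmic reticulum (PERK), double-stranded RNA (PKR) or mitochondrial and heme stress (HRI) phosphorylate the initiation factor eIF2, which lowers protein synthesis as a whole but favours translation of the ATF4 mRNA. ATF4 then pairs with C/EBP proteins and switches on genes for amino acid synthesis, amino acid uptake and transfer RNA charging, and further factors such as ATF3, ATF5 and CHOP (the product of Ddit3). Because ATF4 is set mainly at translation, its mRNA is not a direct measure of its protein; in liver, the pathway is known for the release of FGF21 and GDF15 into the blood. Folliculin, the product of Flcn, acts with FNIP proteins on RagC and RagD and holds the transcription factors TFEB and TFE3 out of the nucleus.

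Several libraries stood apart in ways the groups do not give. Counts of Xist, the RNA of the inactive X chromosome, were 5411 or more in 12 libraries and 19 or less in 10, with 3 high libraries in each group and 3, 2, 2 and 3 low libraries in Cre chow, Cre MCD, liver-Flcn-/- chow and liver-Flcn-/- MCD mice. The labels do not give the sex of the animals. Among the 11 chow libraries, the 5 with low Xist were also the 5 for which the study lists a low share of uniquely mapped reads, so that these properties cannot be told apart on chow. Of the high-Xist libraries, Cre MCD replicate 1 and liver-Flcn-/- chow replicate 2 also held 378 and 263 counts of the Y-linked gene Ddx3y, and Cre chow replicate 2, liver-Flcn-/- chow replicate 4 and liver-Flcn-/- MCD replicate 3 held 93, 97 and 113. The other 7 high-Xist libraries held 0 to 22 counts, against 703 to 2172 in the low-Xist libraries. Skeletal muscle genes were abundant in Cre MCD replicate 3 (8 markers summing to 1901 CPM) and present in Cre MCD replicate 4 (96.0 CPM), against 0.769 to 40.1 CPM in every other library. The liver identity of all samples showed in Alb, the albumin gene, at a mean of 79159 CPM.

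The stretches of DNA that ATF4 and its partners are known to read are shown here as a description. Any tie between them and the members' response to diet was not tested. The C/EBP-ATF composite site was searched as TGATGNAA on both strands in RefSeq promoter windows of 300 bases (250 before and 50 after the start, build GRCm38.p6); all 10 genes matched, with 12 windows. It was present in 5 of the 10 genes, counted per gene, and in 3.97% of all 32851 windows. The 10 genes were chosen as members of this pathway, so these shares are a description. The first base of the match lay 110 bases before the start of Atf3, 193 before that of Chac1, 23 before that of Asns, 139 before that of Fgf21, and at base 15 of the Trib3 transcript. The starts here are those of the RefSeq transcripts behind the windows and not the ends of the gene spans of the count annotation: for Atf3 and Gdf15 they are alternative starts well inside the span, for Chac1, Asns and Trib3 they lie within 50 bases of its end, and for Fgf21 they coincide with it. The Atf3, Asns and Gdf15 stretches therefore fall inside the gene spans given at the end. The 30-base stretches follow 5′ to 3′ on the gene's strand, with the match in capitals, and lie at chr1:191183425-191183454 (minus strand) for Atf3, chr2:119351038-119351067 (plus) for Chac1, chr2:152344028-152344057 (minus) for Trib3, chr6:7693214-7693243 (minus) for Asns and chr7:45615611-45615640 (minus) for Fgf21.
Atf3: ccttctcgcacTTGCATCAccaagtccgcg
Chac1: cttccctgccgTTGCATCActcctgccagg
Trib3: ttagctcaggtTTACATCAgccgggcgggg
Asns: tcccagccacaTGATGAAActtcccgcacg
Fgf21: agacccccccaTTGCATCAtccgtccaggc

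Atf3, Chac1 and Fgf21 held the same 8 letters in the reverse orientation. The letters were not found in the windows of Atf4, Atf5, Ddit3, Sesn2 and Gdf15. In Cre mice on MCD these genes without the site all rose. Of the genes with it, Atf3, Trib3, Asns and Fgf21 rose and Chac1 did not pass. The E-box CACGTG, the core of the sites that TFEB and TFE3 bind, is shown because these factors are the ones folliculin restrains; it was present in 2 of the 10 genes, Fgf21 (50 bases before the start, chr7:45615523-45615552, minus strand) and Gdf15 (83 bases before its RefSeq start, chr8:70632161-70632190, minus strand), and in 7.15% of all windows. These letters do not overlap the composite site of Fgf21.
Fgf21: gagtggggagggCACGTGggcgggcctgtc
Gdf15: cacagggcagggCACGTGtgagcatccagt

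Flcn itself, on chromosome 11, was read first as a check of the labels. In Cre mice on chow it ranged from 26.1 to 40.2 CPM with a median of 31.8, and in liver-Flcn-/- mice on chow from 16.7 to 24.2 CPM with a median of 19.96. The chow groups did not overlap (log2 fold change -0.63 ± 0.17 SE, adjusted p = 0.0249). On MCD the ranges were 18.2 to 39.9 CPM in Cre and 17.6 to 32.6 CPM in liver-Flcn-/- mice, and the groups overlapped (-0.16 ± 0.17, adjusted p = 0.567). Counts were summed over the whole gene, of which only exon 7 is removed, and most of the transcript lies outside the deleted part, so this level is a weak check of the deletion. Rragd, which encodes RagD and is a known TFEB and TFE3 target, separated the genotypes on both diets: it ranged from 1.502 to 9.89 CPM in all Cre livers and from 17.2 to 74.3 CPM in all liver-Flcn-/- livers.

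**Figure D1:**
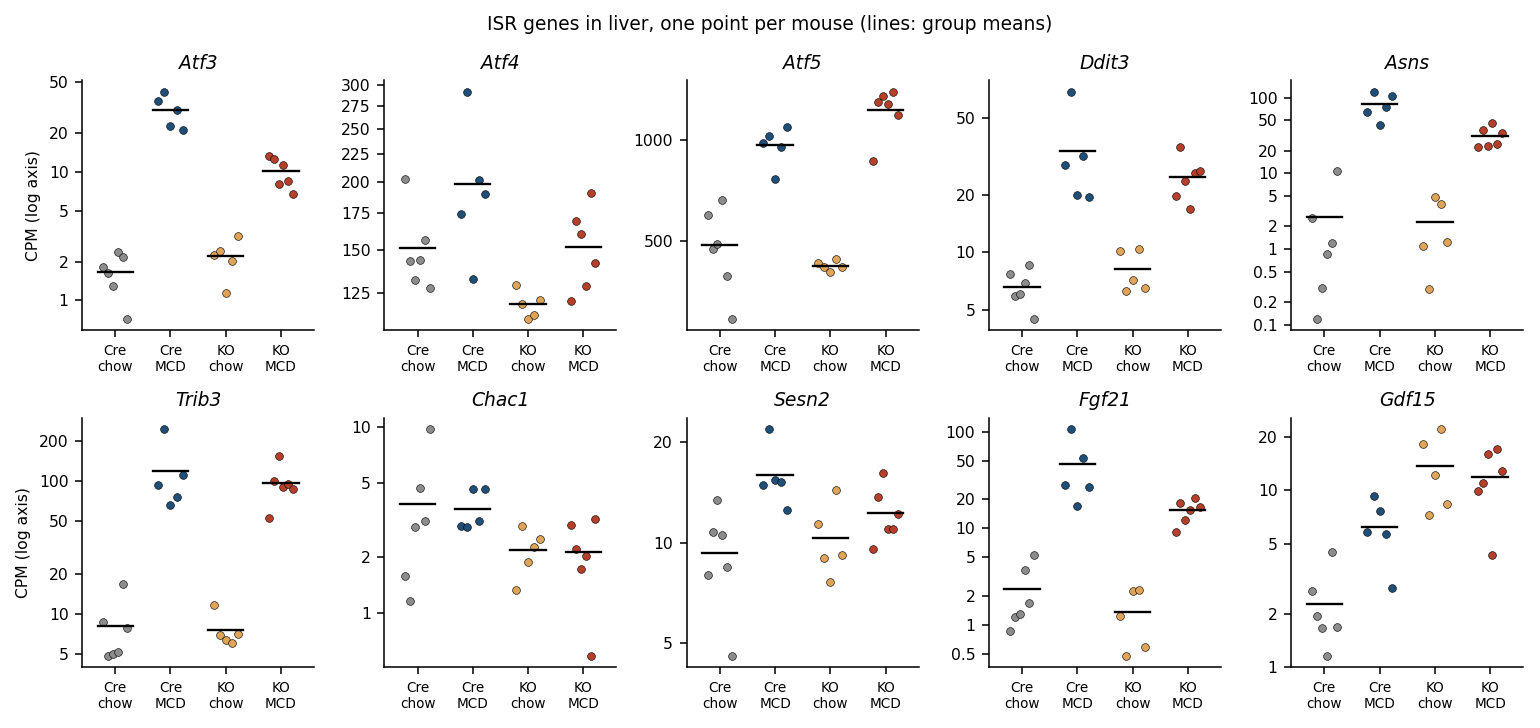
Level of each of the 10 ISR genes in every liver, as CPM on a log axis, by group (Cre or liver-Flcn-/- KO mice, chow or MCD diet); each point is a mouse and each line a group mean. Atf3, Atf5, Ddit3, Asns, Trib3 and Fgf21 stand above the chow livers in every MCD liver of both genotypes, Chac1 overlaps across all groups, and Gdf15 is high in liver-Flcn-/- livers on chow.

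The first question was how the ISR genes of control livers changed on the MCD diet. In Cre mice 9 of the 10 genes rose and 0 fell (0 also by DESeq2, by limma-voom and at an unadjusted p under 0.05), where 29.3% of all tested genes rose and 28.2% fell. The largest estimates were those of Asns, which makes asparagine (32.5-fold), Fgf21 (20.1-fold), Atf3 (17.9-fold) and Trib3 (14.7-fold). Their order is not firm: in the low-Xist libraries alone the log2 fold changes were 3.65 for Asns, 3.79 for Fgf21, 4.07 for Atf3 and 2.69 for Trib3. In 6 of the 10 every MCD liver lay above every chow liver, where 15.6% of all tested genes were higher and 16.9% lower without overlap. The median log2 fold change of the 10 was 1.91, against 0.012 over all tested genes. In whole liver, more cells of a type that express a gene and more RNA of it per cell cannot be told apart.

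Among the transcription factors, Atf3, a stress-induced factor that can both activate and repress, was at 0.723 to 2.37 CPM (median 1.73) in Cre livers on chow and at 35.6, 41.9, 22.6, 30.03 and 21.1 CPM in the 5 Cre livers on MCD. The lowest MCD liver was thus far above the highest chow liver (log2 fold change 4.16 ± 0.27 SE, adjusted p = 1.00e-10). Ddit3, which encodes the cell death factor CHOP, was at 4.50 to 8.59 CPM (median 6.49) on chow and at 28.7, 69.0, 19.97, 31.8 and 19.5 CPM on MCD, again without overlap (2.35 ± 0.28, adjusted p = 4.55e-07). Atf5, which is abundant in liver and regulates mitochondrial stress genes, went from 292 to 662 CPM (median 480) on chow to 983, 1026, 766, 956 and 1095 CPM on MCD (1.00 ± 0.16, adjusted p = 1.83e-05). Atf4 was at 128 to 203 CPM (median 144) on chow and at 174, 292, 133, 202 and 190 CPM on MCD, and these ranges overlapped. Its increase was small (0.39 ± 0.16, adjusted p = 0.0363) and not stable: it missed the threshold in 6 of 22 single-library omissions and in 4 of 13 other alternatives. It was 0.21 without Cre MCD replicate 2, the highest library (adjusted p = 0.202). The other omissions that lost it were of Cre chow replicates 2, 3, 4 and 6 and of Cre MCD replicate 4, with an adjusted p of at most 0.0761 (without Cre chow replicate 6). Among the alternatives were limma-voom (adjusted p = 0.0505), a fit to the groups compared alone (adjusted p = 0.0872) and the low-Xist libraries alone (0.06, adjusted p = 0.865).

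Of the targets inside the cell, Asns was at 0.121 to 10.8 CPM (median 1.03) in Cre livers on chow and at 63.7, 120, 44.0, 75.0 and 106 CPM on MCD (5.02 ± 0.68, adjusted p = 2.55e-06). Chow replicate 6, at 10.8 CPM, stood well above the other chow livers, and without it the log2 fold change was 6.39. Trib3, a pseudokinase that binds ATF4 and CHOP and dampens them, was at 4.86 to 17.0 CPM (median 6.52) on chow and at 93.7, 248, 66.8, 76.1 and 112 CPM on MCD (3.88 ± 0.37, adjusted p = 2.48e-08). Sesn2, which encodes a leucine sensor that restrains mTORC1, was at 4.58 to 13.5 CPM on chow and 12.5 to 21.9 CPM on MCD. These ranges overlapped, with a 1.71-fold increase (0.78 ± 0.21, adjusted p = 0.00328). The increase missed the threshold in 2 of 13 alternatives, among them the high-Xist libraries alone (0.51, adjusted p = 0.0842). The lowest estimate among the 13 was 0.46. Chac1, a glutathione-degrading enzyme often used as an ATF4 readout, did not pass: it was at 1.15 to 9.72 CPM (median 3.01) on chow and at 2.92, 2.89, 4.64, 3.10 and 4.61 CPM on MCD (-0.08 ± 0.41, adjusted p = 0.882). Its highest value of all 22 livers was in chow replicate 6, the same liver that was highest in Asns among chow livers. Without that liver the log2 fold change was 0.43 ± 0.36 (adjusted p = 0.325).

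Both hormone genes rose in Cre mice. Fgf21, a liver hormone of fasting and of protein restriction, was at 0.870 to 5.22 CPM (median 1.49) on chow and at 28.2, 106, 17.1, 53.3 and 26.4 CPM on MCD (4.33 ± 0.50, adjusted p = 2.66e-07). Every MCD liver was above every chow liver, but the MCD livers differed among themselves by a wide margin. Gdf15, a hormone that acts on the hindbrain to lower food intake, was at 1.16 to 4.47 CPM (median 1.82) on chow and at 5.81, 9.26, 7.64, 5.63 and 2.82 CPM on MCD. It rose 2.76-fold (1.46 ± 0.39, adjusted p = 0.00287), with Cre MCD replicate 5 inside the chow range, and missed the threshold in the low-Xist libraries alone (1.18, adjusted p = 0.0654). Leaving out the livers with skeletal muscle RNA, Cre MCD replicates 3 and 4, left 9 genes past the test. Markers of other cells were read beside the members in Cre mice, where 29.3% of all tested genes rose and 28.2% fell. Of the tested markers, 4 of 4 neutrophil, 3 of 7 macrophage, 5 of 7 stellate cell and fibroblast and 3 of 6 bile duct genes rose. Of the hepatocyte markers 5 of 6 fell. Of 6 endothelial markers 1 rose and 3 fell, and 1 macrophage marker, Clec4f of Kupffer cells, fell (-0.77, adjusted p = 0.00616). Mean sums went from 3.81 to 27.3 CPM for neutrophil (most abundant S100a9), 469 to 573 CPM for macrophage, 333 to 603 CPM for stellate and 134907 to 92967 CPM for hepatocyte markers, and no marker of these lists was at 0 in all libraries. Trem2, a marker of lipid-associated macrophages, rose 25.7-fold. The part of these cells in the changes of the 10 genes was not tested.

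Of the 10 genes 6 rose in liver-Flcn-/- mice on the MCD diet and 0 fell (0 also by DESeq2, by limma-voom and at an unadjusted p under 0.05), where 22.5% of all tested genes rose and 22.5% fell. They were Atf3, Atf5, Ddit3, Asns, Trib3 and Fgf21, and in all 6 every MCD liver lay above every chow liver, where 14.4% of all tested genes were higher and 14.8% lower without overlap. The median log2 fold change of the 10 was 1.58, against 0.0043 over all tested genes. Atf4, Sesn2, Gdf15 and Chac1 did not pass.

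Atf3 was at 2.26, 2.44, 1.14, 2.04 and 3.18 CPM in the liver-Flcn-/- livers on chow and at 6.77 to 13.3 CPM (median 9.91) on MCD, a 4.53-fold increase (2.18 ± 0.27, adjusted p = 1.38e-06). Ddit3 was at 10.2, 6.30, 7.19, 10.4 and 6.52 CPM on chow and at 16.9 to 35.3 CPM (median 24.8) on MCD (1.61 ± 0.28, adjusted p = 9.81e-05). Atf5 was nearly the same in all 5 chow livers, at 428, 416, 404, 439 and 417 CPM, and at 865 to 1398 CPM (median 1293) on MCD, a 2.93-fold increase (1.55 ± 0.16, adjusted p = 1.96e-07). This was the only member whose log2 fold change on the diet was larger in liver-Flcn-/- than in Cre mice among the 6 that passed in both, a difference that did not pass its own test (0.55 ± 0.23, adjusted p = 0.127), although it passed without Cre chow replicate 6 (0.67, adjusted p = 0.0351) and in 1 of 12 alternative analyses. Atf4 was at 130, 120, 112, 114 and 122 CPM on chow and 121 to 190 CPM (median 151) on MCD (0.35 ± 0.16, adjusted p = 0.0771).

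Asns was at 1.09, 0.297, 4.84, 3.97 and 1.24 CPM in liver-Flcn-/- livers on chow and at 22.4 to 45.7 CPM (median 29.1) on MCD (3.76 ± 0.69, adjusted p = 0.000157). Trib3 was at 11.7, 7.01, 6.45, 6.12 and 7.11 CPM on chow and at 52.8 to 154 CPM (median 93.0) on MCD (3.66 ± 0.39, adjusted p = 2.10e-07). Sesn2 was at 7.66 to 14.4 CPM on chow and 9.56 to 16.2 CPM on MCD (0.25 ± 0.21, adjusted p = 0.360). The Asns and Trib3 groups did not overlap, whereas the Sesn2 ranges lay largely on top of each other. Chac1 was at 1.32 to 2.91 CPM on chow and at 0.586 to 3.20 CPM on MCD (-0.04 ± 0.43, adjusted p = 0.942).

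Fgf21 was at 1.25, 0.475, 2.22, 2.32 and 0.593 CPM in liver-Flcn-/- livers on chow and at 9.16 to 20.7 CPM (median 16.1) on MCD, an 11.3-fold increase (3.495 ± 0.54, adjusted p = 2.00e-05). Gdf15 was at 18.2, 7.25, 12.2, 22.2 and 8.41 CPM on chow and at 4.31 to 17.2 CPM (median 11.9) on MCD (-0.20 ± 0.35, adjusted p = 0.671). The level of Gdf15 was thus already high on chow in these livers, and the MCD range lay within or below the chow range. Beside these changes, 4 of 4 neutrophil markers rose and 5 of 6 hepatocyte markers fell in liver-Flcn-/- mice on MCD, with mean sums going from 4.21 to 15.6 CPM and from 110162 to 73387 CPM, whereas 1 of 7 macrophage markers rose and 2 fell, and 1 of 7 stellate markers rose and 1 fell. In the same livers, where 22.5% of all tested genes rose and 22.5% fell, 4 of 6 endothelial and 3 of 6 tested lymphocyte markers fell. Their part in the changes was not tested. All of these comparisons take the same chow libraries that also serve in the comparison of genotypes on chow.

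**Figure D2:**
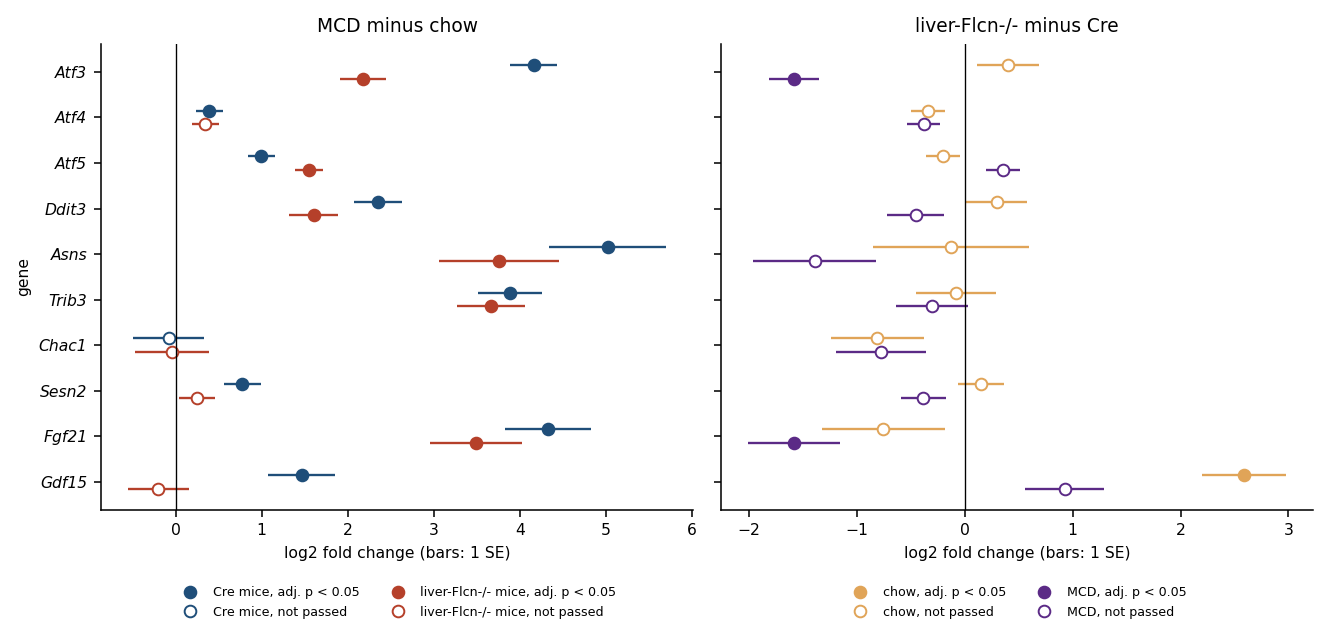
Log2 fold change of each ISR gene with 1 SE, for MCD minus chow in either genotype (left) and for liver-Flcn-/- minus Cre on either diet (right); filled points passed an adjusted p of 0.05 and open points did not. On the left the changes reach 5.02 for Asns in Cre mice and those of Atf3 differ most clearly between genotypes; on the right only Gdf15 on chow and Atf3 and Fgf21 on MCD are filled.

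The next question was whether loss of Flcn alone changed these genes. On chow 1 of the 10, Gdf15, was higher in liver-Flcn-/- mice and 0 were lower (by DESeq2 and limma-voom also 0, and 1, Atf4, at an unadjusted p under 0.05), where 5.52% of all tested genes were higher and 3.10% lower. Gdf15 was at 7.25 to 22.2 CPM in the 5 liver-Flcn-/- livers and at 1.16 to 4.47 CPM in the 6 Cre livers, with no overlap, where 4.01% of all tested genes were higher and 2.93% lower without overlap. The difference was 6.02-fold (log2 2.59 ± 0.39, adjusted p = 0.000141), and the exact two-sided permutation p of 0.00216 is the smallest that 6 against 5 livers can give. It held in both Xist classes, at 2.99 (adjusted p = 0.00459) in the high-Xist libraries and 2.37 (adjusted p = 0.0196) in the low-Xist libraries. The Gdf15 level of liver-Flcn-/- livers on chow (13.6 ± 6.42 CPM, SD, n = 5) was also above that of Cre livers on MCD (6.23 ± 2.42 CPM, SD, n = 5), a pair that differs in both genotype and diet and was not tested.

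The other 9 genes did not pass on chow, and their median log2 fold change together with Gdf15 was -0.11. The estimates ran from -0.81 ± 0.43 for Chac1 (95% interval -1.66 to 0.04) to 0.40 ± 0.29 for Atf3 (-0.17 to 0.97), and that of Chac1 was -0.30 without Cre chow replicate 6 (adjusted p = 0.690). Atf4, at 112 to 130 CPM in liver-Flcn-/- livers and 128 to 203 CPM in Cre livers, gave -0.34 ± 0.16 (-0.65 to -0.03, adjusted p = 0.193). The groups touched only at their ends, with 1 liver-Flcn-/- liver inside the Cre range. The estimate for Asns was the least certain (-0.13 ± 0.72) and turned with the libraries used: it was 1.24 without Cre chow replicate 6 and 2.10 without the 5 libraries of low uniquely mapped share, in neither case past the test (adjusted p = 0.252 and 0.2004). Some bile duct markers were higher with Gdf15 on chow, where 5.52% of all tested genes were higher and 3.10% lower. They were 2 of 6, Spp1 and Cftr. The 6 summed to 96.6, 81.1, 127, 117 and 204 CPM in liver-Flcn-/- livers against 47.2 to 95.4 CPM (median 57.5) in Cre livers. The sum was mostly Spp1 (mean 103 against 44.5 CPM), and the duct keratins and Epcam did not pass, with means of 1.25 against 4.34 CPM for Krt19, 1.23 against 1.18 CPM for Krt7 and 2.34 against 2.62 CPM for Epcam. Spp1 was the most abundant of them (mean 87.0 CPM), and no marker of that list was at 0 in all libraries. Of the other lists, Trem2 (macrophage, 1.65) and Stab2 (endothelial, 0.76) were higher and Ttr (hepatocyte, -0.46) was lower in liver-Flcn-/- livers on chow, and the lymphocyte markers summed to 6.92 to 9.68 CPM there against 2.57 to 7.35 CPM in Cre livers. The part of these cells in the Gdf15 difference was not tested.

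On the MCD diet 2 of the 10 genes, Atf3 and Fgf21, were lower in liver-Flcn-/- than in Cre mice and 0 were higher (by DESeq2 and limma-voom also 0, and 2, Atf5 and Gdf15, at an unadjusted p under 0.05), where 8.53% of all tested genes were lower and 8.06% higher. The median of the 10 was -0.42. Atf3 was 2.99-fold lower (-1.58 ± 0.23, adjusted p = 9.55e-05), with the highest liver-Flcn-/- liver at 13.3 CPM and the lowest Cre liver at 21.1 CPM. It was the only member without overlap, where 5.08% of all tested genes were higher and 3.53% lower without overlap. Fgf21 was 3.00-fold lower (-1.59 ± 0.43, adjusted p = 0.0129), but the ranges of 9.16 to 20.7 and 17.1 to 106 CPM overlapped. Without Cre MCD replicate 2, at 106 CPM, the Fgf21 difference was -1.02 and missed the threshold (adjusted p = 0.0772). In the low-Xist libraries alone (2 Cre and 3 liver-Flcn-/- livers) neither passed (Atf3 -1.09, adjusted p = 0.0619; Fgf21 -1.31, adjusted p = 0.223), and in the high-Xist libraries both did (-2.08, adjusted p = 0.00024; -1.70, adjusted p = 0.0455).

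Asns was near the threshold on MCD, at 22.4 to 45.7 CPM in liver-Flcn-/- and 44.0 to 120 CPM in Cre livers (-1.39 ± 0.57, adjusted p = 0.0981). A single liver-Flcn-/- liver, replicate 4, lay above the lowest Cre liver. The difference passed in 7 of 13 alternative analyses, among them limma-voom (adjusted p = 0.00523), and without Cre chow replicate 6 (adjusted p = 0.0241). Gdf15 did not pass on MCD, at 4.31 to 17.2 CPM in liver-Flcn-/- and 2.82 to 9.26 CPM in Cre livers, overlapping ranges (0.93 ± 0.36, adjusted p = 0.0865). It passed in 1 of 13 alternatives and in 1 of 22 single-library omissions, and the lowest estimate among the alternatives was 0.33. Trib3 was at 52.8 to 154 CPM against 66.8 to 248 CPM (-0.30 ± 0.33, 95% interval -0.96 to 0.35), and Ddit3 at 16.9 to 35.3 against 19.5 to 69.0 CPM (-0.45 ± 0.26, -0.97 to 0.06). For both genes the upper end of the Cre range was a single liver, Cre MCD replicate 2, without which the log2 differences were -0.02 for Ddit3 (adjusted p = 0.969) and 0.15 for Trib3 (adjusted p = 0.796).

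The difference between the diet responses of the genotypes was tested as an interaction. It passed for 1 of the 10 genes, Atf3, whose increase was 3.96-fold smaller in liver-Flcn-/- mice (log2 -1.98 ± 0.37, adjusted p = 0.00307), and for 0 in the other direction (by DESeq2 and limma-voom also 0, and 1, Atf5, at an unadjusted p under 0.05), where 5.54% of all tested genes had a lower and 3.29% a higher response in liver-Flcn-/- mice. The Atf3 value was -2.61 in the high-Xist libraries (adjusted p = 0.00398) and -1.20 in the low-Xist libraries, where it did not pass (adjusted p = 0.408). Gdf15 lay at the threshold (-1.67 ± 0.53, adjusted p = 0.0505) and passed in 3 of 12 alternative analyses and in 5 of 22 with a single library left out. The median of the 10 was -0.64. For Fgf21 (-0.83 ± 0.72, 95% interval -2.23 to 0.57), Asns (-1.26 ± 0.92, -3.06 to 0.54) and Trib3 (-0.22 ± 0.50, -1.19 to 0.76) the intervals were wide, so that a smaller or an equal response in liver-Flcn-/- mice could not be told apart at this replicate spread. The Asns value rested on Cre chow replicate 6, without which it was -2.63 and passed (adjusted p = 0.0351), and it passed in 2 of 12 alternative analyses. Without Cre MCD replicate 2 the values were -0.26 for Fgf21 (adjusted p = 0.842) and 0.23 for Trib3 (adjusted p = 0.787).

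Markers of several cell types differed like Atf3 between the genotypes on the MCD diet, where 8.53% of all tested genes were lower and 8.06% higher. Of 7 macrophage markers 3 (Cd68, Lyz2 and Trem2) were lower in liver-Flcn-/- mice on MCD, and the 7 summed to 605, 475, 455, 771 and 561 CPM in Cre livers and to 282 to 661 CPM (median 377) in liver-Flcn-/- livers. Of 7 stellate cell and fibroblast markers 4 (Col1a1, Col1a2, Col3a1 and Acta2) were lower, with sums of 644, 441, 719, 588 and 621 CPM against 384 to 483 CPM (median 407). The most abundant gene was Cd5l (mean 149 CPM) in the first list and Dcn (mean 276 CPM) in the second, and no marker of either was at 0 in all libraries. Single stellate markers separated the groups where the sum did not: Col1a1 was at 15.8 to 41.0 CPM in Cre and 4.15 to 14.03 CPM in liver-Flcn-/- livers on MCD, and Acta2 at 4.56 to 15.8 and 0.954 to 3.68 CPM, both without overlap, as for Atf3. The diet response was also lower in liver-Flcn-/- mice for the same 3 macrophage markers and for 3 stellate markers (Col1a1, Col1a2 and Col3a1). Of all tested genes 5.54% had a lower response there. Of the other lists, 8 of 8 skeletal muscle markers and 1 of 6 hepatocyte markers (Cyp2e1) were lower in liver-Flcn-/- livers, and 2 of 6 bile duct markers (Sox9 and Cftr) and 1 of 6 endothelial markers (Stab2) were higher. Without the livers with muscle RNA, Cre MCD replicates 3 and 4, the Atf3 difference was -1.70 (adjusted p = 0.000286). The part of the other cells in the Atf3 difference was not tested.

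**Figure D3:**
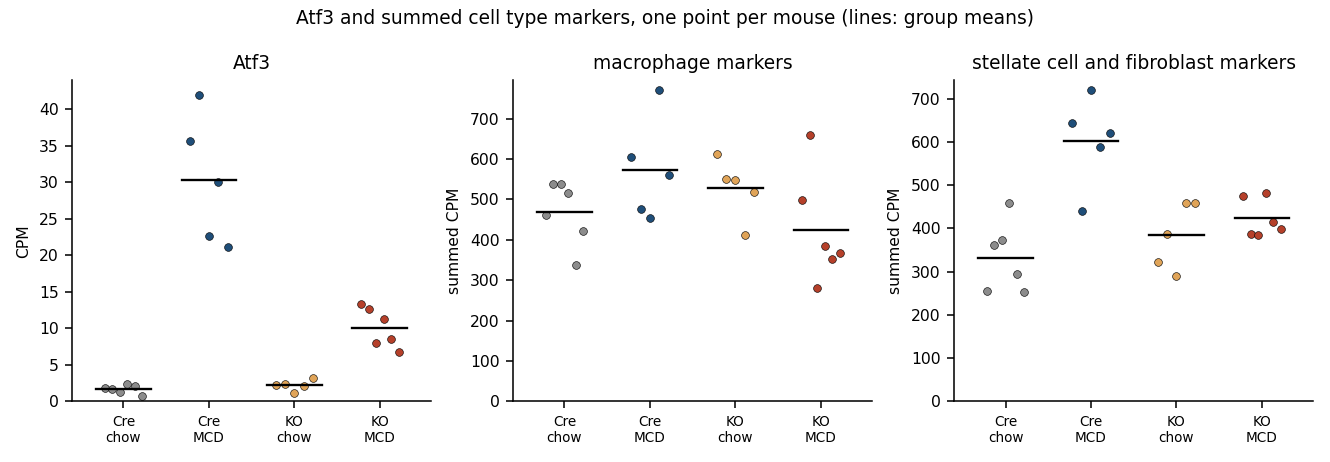
Atf3 (CPM) beside the summed CPM of 7 macrophage and 7 stellate cell and fibroblast markers in every liver, by group, with lines at the group means and axes from 0. Atf3 separates the MCD groups (21.1 CPM or more in Cre, 13.3 CPM or less in liver-Flcn-/- livers), and both marker sums overlap between them, although single stellate markers such as Col1a1 do not.

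The pathway around the 10 genes was read from 14 gene lists, whose members that passed are counted beside the shares of all tested genes given above. Upstream, the list of the eIF2 kinases, eIF2, eIF2B and its phosphatase had 9 of 15 genes rise and 3 fall in Cre mice on MCD, and 8 rise and 2 fall in liver-Flcn-/- mice (medians 0.48 and 0.31). Eif2ak3, which encodes PERK, rose in Cre mice (0.87) and was higher on chow in liver-Flcn-/- livers (0.69, adjusted p = 0.0204). Impact, an inhibitor of GCN2, was higher in liver-Flcn-/- mice on both diets (0.55 and 0.44). Of 10 bZIP partners and co-regulators 4 rose and 1 fell in Cre mice, against 3 and 2 in liver-Flcn-/- mice. In this list stood Nupr1, a small chromatin protein induced by ATF4, at 0.964 to 2.06 CPM in Cre livers on chow and at 63.2, 204, 29.5, 54.0 and 42.4 CPM on MCD. In liver-Flcn-/- livers it was at 20.6, 8.79, 16.3, 19.8 and 18.5 CPM on chow and at 125 to 290 CPM (median 170) on MCD. Like Gdf15, Nupr1 was thus higher on chow in liver-Flcn-/- livers (3.35 ± 0.43, adjusted p = 2.23e-05). Unlike Gdf15 it rose further on MCD (3.43 ± 0.40), with a smaller fold than in Cre mice (interaction -2.15 ± 0.55, adjusted p = 0.0199).

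Amino acid synthesis genes carried large changes. In Cre mice 8 of 12 rose and 3 fell (median 1.70, or 1.66 with Phgdh, whose chow libraries lie at 3 counts or less, set at the value that 3 counts per library allow), against 5 and 2 in liver-Flcn-/- mice (median 0.87). Psat1, an enzyme of serine synthesis, went from 0.486 to 1.58 CPM on chow to 48.9, 114, 18.3, 38.9 and 48.8 CPM on MCD in Cre livers, a 61.1-fold increase, and rose 23.0-fold in liver-Flcn-/- livers. Phgdh, the first enzyme of that route, had 9 counts in all Cre chow libraries together and 9 to 47 counts in each Cre MCD library, a ratio of 10.9 with a counting interval of 5.55 to 24.4. Aldh18a1, which makes the precursor of proline, rose 11.1-fold in Cre and 2.79-fold in liver-Flcn-/- mice (interaction -1.99 ± 0.43, adjusted p = 0.0068), and Pycr1, the last enzyme of proline synthesis, rose in both and was lower in liver-Flcn-/- mice on MCD (-1.46, adjusted p = 0.000376). On chow 2 of the 12, Phgdh (2.11, adjusted p = 0.0319) and Aldh18a1 (1.22, adjusted p = 0.0213), were already higher in liver-Flcn-/- livers and 1 was lower. The Phgdh counts were few here too, with 1 to 13 in each liver-Flcn-/- chow library. Set at the value that 3 counts per Cre library allow, its log2 difference was 1.10. On MCD 3 of the 12 were lower in liver-Flcn-/- mice, and 3 of 12 had a smaller response.

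Amino acid transporters bring the substrates of these routes into the cell. Of 9 tested (of 10 listed) 6 rose and 1 fell on MCD in Cre mice, whereas 4 rose and 2 fell in liver-Flcn-/- livers, and on MCD 5 were lower in liver-Flcn-/- than in Cre mice. Slc7a11, the cystine transporter, had 2 counts in all Cre chow libraries together and 60 to 149 in each Cre MCD library, a ratio of 195 with a counting interval of 53.7 to 1616. Slc7a5, the large neutral amino acid transporter, was at 6.55, 5.34, 3.94, 4.32 and 4.87 CPM in Cre MCD livers and at 1.76 to 3.05 CPM in liver-Flcn-/- MCD livers, with no overlap (-1.01 ± 0.15), and its diet response differed (-1.05 ± 0.22, adjusted p = 0.00558). Slc1a4, a transporter of serine and alanine, did not pass on the diet in Cre mice (-0.17 ± 0.33) and fell 5.24-fold in liver-Flcn-/- mice, to 1.29 to 2.75 CPM (interaction -2.22 ± 0.48, adjusted p = 0.00735).

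Of 20 cytosolic aminoacyl-tRNA synthetase genes, which load amino acids onto transfer RNA, 12 rose and 4 fell in Cre mice against 9 and 3 in liver-Flcn-/- mice (medians 0.40 and 0.27). Gars rose in both (1.38 and 1.06), Sars rose in both (1.24 and 1.61), and Tars fell in both (-1.25 and -0.97). Of 10 other tested ATF4 or CHOP targets 5 rose and 1 fell in each genotype. Adm2, a peptide hormone gene, had 0 counts in every Cre chow library and was at 2.10, 9.09, 0.187, 1.12 and 3.84 CPM in the Cre MCD livers, from 4 to 211 counts, with the lowest close to the limit of 3 counts. Pck2, the mitochondrial form of phosphoenolpyruvate carboxykinase, rose 9.81-fold in Cre mice but 2.05-fold in liver-Flcn-/- mice, where it was already higher on chow (4.67, 8.02, 5.17, 14.2 and 7.11 CPM against 2.29 to 4.75 CPM). Its interaction was -2.26 ± 0.44 (adjusted p = 0.00408).

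**Figure D4:**
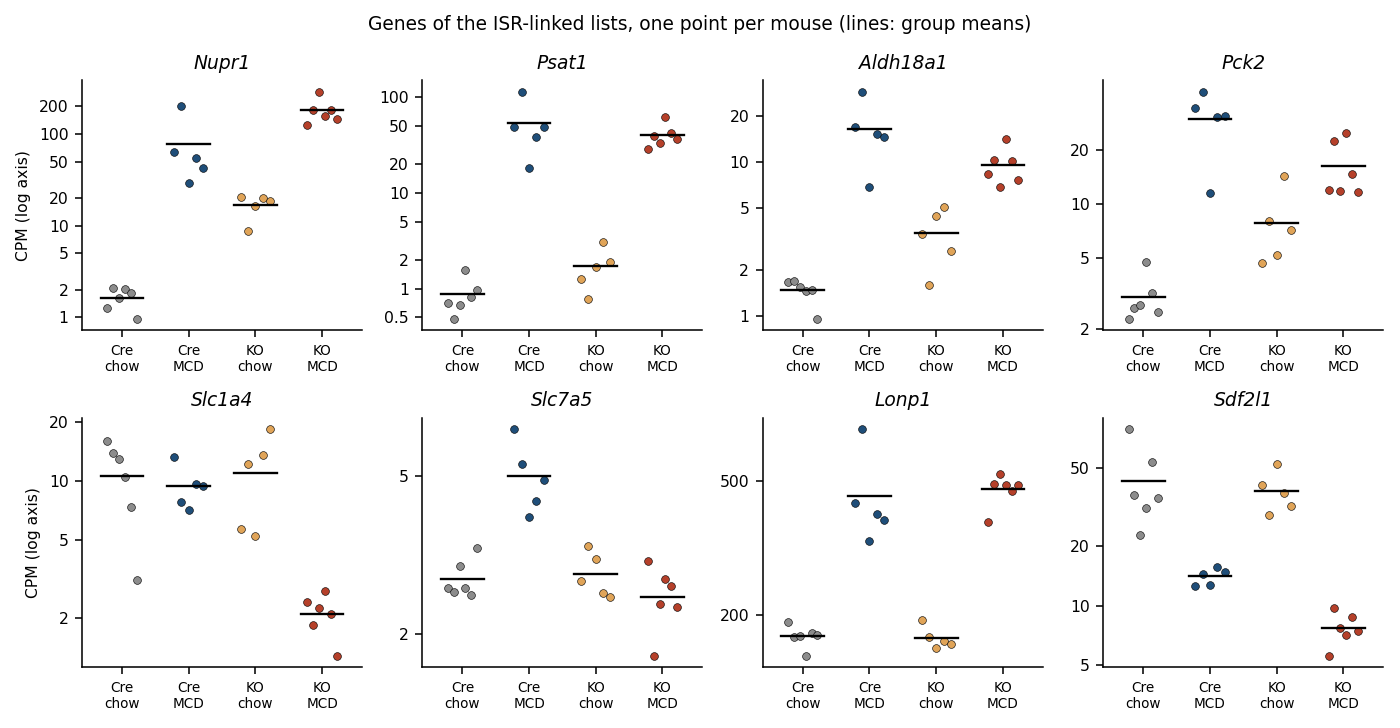
Level of 8 genes of the ISR-linked lists in every liver, as CPM on a log axis by group, with lines at the group means. Nupr1 is raised in liver-Flcn-/- livers on chow, Slc1a4 falls on MCD in liver-Flcn-/- livers, Lonp1 rises in both genotypes and Sdf2l1 falls in both.

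Chaperone genes of the endoplasmic reticulum, the targets of the parallel ATF6 and XBP1 branches of the unfolded protein response, had more genes fall than rise on the MCD diet: 2 of 20 rose and 12 fell in Cre mice against 2 and 10 in liver-Flcn-/- mice (medians -0.45 and -0.38). Sdf2l1 was at 22.8 to 78.8 CPM (median 35.9) in Cre chow livers and at 12.6, 14.6, 12.7, 15.7 and 14.9 CPM on MCD, and at 5.57 to 9.73 CPM in liver-Flcn-/- livers on MCD. Edem1, which sends misfolded glycoproteins to degradation, fell in both genotypes (-0.999 and -1.09). Of 8 mitochondrial chaperone and protease genes 3 rose and 2 fell in Cre mice and 4 rose in liver-Flcn-/- mice. Lonp1, a mitochondrial protease, rose 2.61-fold and 2.75-fold, and Hspa9, a mitochondrial chaperone, rose in both (0.78 and 1.23).

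Genes with other ties to the members were as follows. Of 12 PPAR-alpha targets, read because PPAR-alpha also drives Fgf21 in fasting, 5 rose and 2 fell in Cre mice against 5 and 1 in liver-Flcn-/- mice; Cyp4a14 rose by 3.94 and 3.95 on the log2 scale, and Acot2 by 3.31 and 2.79. Of the 6 receptor genes listed for FGF21 and GDF15 together, only 5 had enough counts to be tested. Of these 5, 1 rose and 3 fell in Cre mice and 2 fell in liver-Flcn-/- mice. Fgfr4 fell in both (-1.33 and -1.18). Klb, the co-receptor of FGF21, was lower on chow in liver-Flcn-/- livers (-0.57, adjusted p = 0.0359), with a diet response that differed (1.00 ± 0.24, adjusted p = 0.0132). Of 12 FLCN and TFEB/TFE3 genes, liver-Flcn-/- livers had 4 higher and 1 lower on chow and 6 higher and 2 lower on MCD. The list includes Flcn itself, the targeted gene. Flcn was the 1 lower on chow (-0.63, adjusted p = 0.0249) and did not pass on MCD (adjusted p = 0.567). Rragd was 15.0-fold higher on chow and 9.09-fold higher on MCD.

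Of 9 p53 targets, read because p53 also acts on Gdf15, Sesn2 and Atf3, 5 rose and 1 fell in Cre mice and 2 rose in liver-Flcn-/- mice; Phlda3 had a smaller response in the latter (-1.79, adjusted p = 0.0261). Of 9 NRF2 targets 5 rose and 1 fell in Cre mice against 4 and 1 in liver-Flcn-/- mice, and on MCD 6 of the 9 were lower in liver-Flcn-/- mice. Srxn1, which repairs oxidised peroxiredoxins, had a smaller response (-1.37, adjusted p = 0.00211). Of 9 tested immediate early genes, a class that includes factors induced like Atf3 within minutes of handling or stress, 3 rose and 3 fell in Cre mice against 1 and 1 in liver-Flcn-/- mice. Ier3 rose in both (2.91 and 1.60) and Dusp1 fell in both (-1.62 and -1.53).

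**Figure D5:**
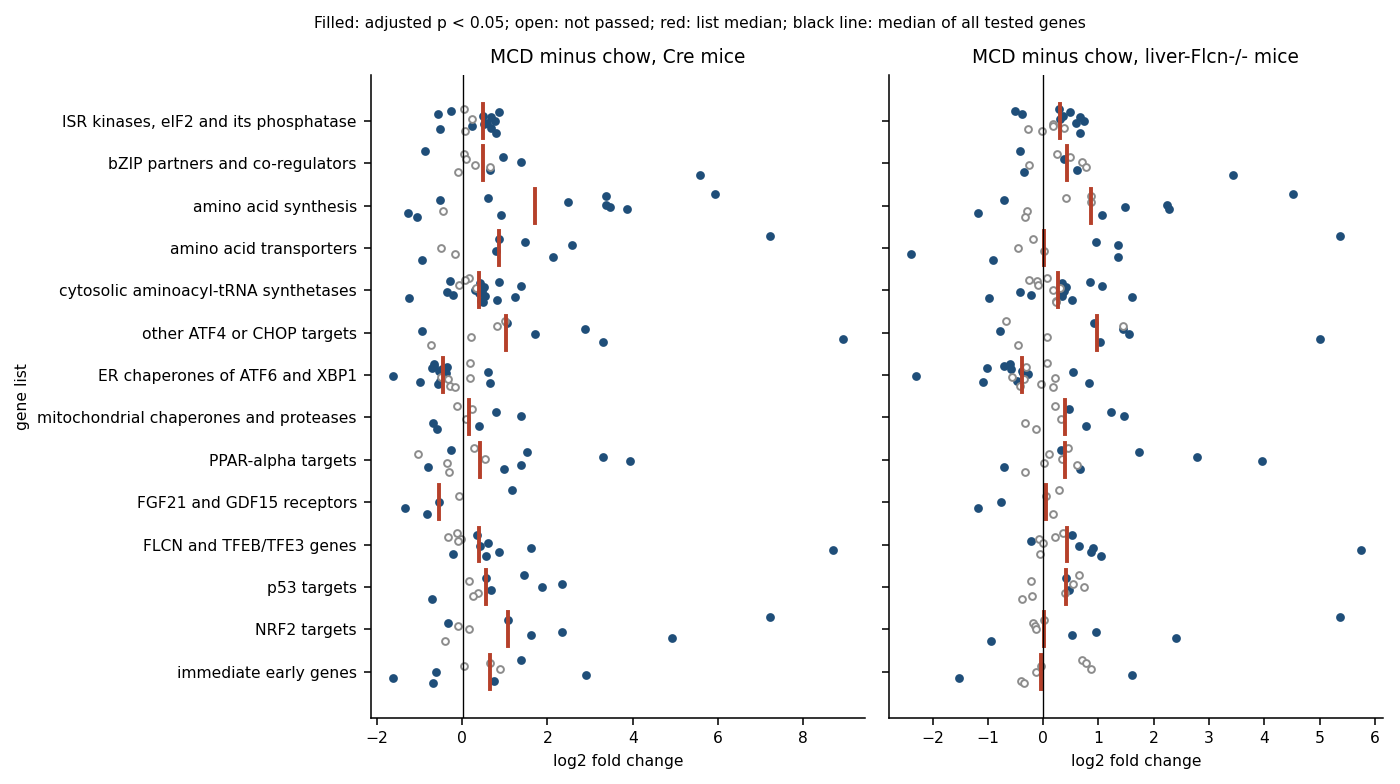
Log2 fold change (MCD minus chow) of every tested gene in 14 lists, for Cre mice (left) and liver-Flcn-/- mice (right); filled points passed an adjusted p of 0.05, red bars are list medians and the black line is the median of all tested genes. Amino acid synthesis has a median of 1.70 in Cre and 0.87 in liver-Flcn-/- mice, and the endoplasmic reticulum chaperones have medians of -0.45 and -0.38.

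Divided by exon length, so that genes can be compared, Atf5 had the highest level of the 10 in every group, at 243 CPM per kilobase in Cre chow livers and 619 CPM per kilobase in liver-Flcn-/- MCD livers, followed by Atf4 (64.1 and 64.5 CPM per kilobase). On chow, the other 8 lay between 0.775 (Atf3) and 3.86 CPM per kilobase (Ddit3) in Cre livers. On MCD, Trib3 and Fgf21 reached 56.1 and 48.7 CPM per kilobase in Cre livers and 45.6 and 16.2 CPM per kilobase in liver-Flcn-/- livers. Sesn2 and Chac1 were at 4.604 and 2.22 CPM per kilobase in Cre livers on MCD, against 2.67 and 2.36 on chow.

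The genes most like each member across the 22 livers were sought among 12837 other genes with a mean of at least 1 CPM, by Pearson's r of log2 CPM, as a description in which all points share the same libraries and the group differences. Atf3 was most like Anxa2 (r = 0.988), Plaur (0.970) and Sprr1a (0.968). Trib3 was most like the mitochondrial protease gene Lonp1 (0.977), with Mat2a, which makes S-adenosylmethionine, next (0.971). Fgf21 was most like Pycr1 (0.946), Asns like Cgref1 (0.968), Ddit3 like Ddx39b (0.963), Atf5 like Txndc12 (0.962) and Gdf15 like Adam11 (0.921). Atf4 (Ears2, 0.906), Sesn2 (Taf1c, 0.908) and above all Chac1 (Sema6b, 0.763) had less close neighbours.

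On GRCm38 the members lie at chr1:191170296-191218039 (Atf3), chr15:80255184-80257541 (Atf4), chr7:44812256-44816658 (Atf5), chr10:127290774-127296288 (Ddit3), chr6:7675169-7693254 (Asns), chr2:152337422-152344032 (Trib3), chr2:119351229-119354381 (Chac1), chr4:132492032-132510501 (Sesn2), chr7:45613886-45615490 (Fgf21) and chr8:70629393-70632456 (Gdf15), and Flcn at chr11:59791408-59810016. Atf4, Ddit3 and Chac1 are on the plus strand and the other 7 members and Flcn on the minus strand. Some gene models limit these readings. The table holds 2 rows named Ddit3. The second lies within the first on the same strand and had 0 counts in every library, so the values above are those of the first; reads on sequence shared by both rows may not have been counted. Ddit3 also overlaps Mars, Atf5 overlaps Nup62 and Il4i1, and Atf3 overlaps a small RNA gene, each on the opposite strand, and Sesn2 overlaps a noncoding gene. The strand setting of the counting is not given in the sources used here, so reads from such partners cannot be told apart.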

How the data were processed

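Liver mRNA libraries (KAPA mRNA HyperPrep, adapters with molecular identifiers, single-end) were made from 1 piece of frozen liver per mouse. The authors trimmed reads with Trimmomatic, aligned them to GRCm38 with STAR and deposited HTSeq read counts per gene, whole numbers without normalization; no collapse of identifiers is stated, so counting error understates the noise. All columns were assigned from their labels.

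Genes averaging 10 or more counts were fitted with edgeR 4.0.16 in R 4.3.3 (TMM, quasi-likelihood F-test, all 4 groups in 1 fit), with Benjamini-Hochberg adjustment over 14062 genes and a threshold of 0.05. SE is the log2 fold change divided by the root of F, and 95% intervals are 1.96 SE. The fit was tested on simulated data, and the outcome is not given here. Alternatives used limma 3.58.1, DESeq2 1.42.0, other filters and scalings, covariates and fewer libraries. The members and lists were chosen with earlier results of these data known. Besides the members, text names Flcn, the 2 list genes with the largest change past the threshold per list and comparison, and the 3 genes most correlated with each member; 1 gene this rule names is not reported here, and marker genes, Xist, Ddx3y and gene overlaps were named after their values were seen. Motif sequences come from RefSeq. Replicate numbers did not pair the livers (mean correlation of deviations -0.0842 to 0.129). The labels give a genotype, a diet and a replicate number, and each library was taken as a separate animal.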

Additional observations from a re-analysis of the deposited data

Results flagged for a closer look

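Among the 40 sets of member values by group, 5 held a liver far from the others of its group by Dixon's criterion. Chance meets that criterion in about 1 of 20 independent groups of normally distributed values. The sets here share the same livers and were read as CPM without a log, so that rate need not hold for them. In Cre MCD replicate 2, Ddit3 was at 69.0 CPM (next highest 31.8) and Trib3 at 248 CPM (next 112). The same liver had the highest Atf3, Atf4, Asns, Sesn2, Fgf21 and Gdf15 of its group. It had the lowest Chac1 (2.89 CPM) and was not the highest in Atf5 (1026 CPM, against 1095 CPM in replicate 5). Its hepatocyte marker sum, 67628 CPM, was the lowest of its group (median 97976 CPM), and any tie to the member values was not tested. Asns was at 10.8 CPM in Cre chow replicate 6 (next 2.61). Trib3 was at 17.0 CPM in Cre chow replicate 5 (next 8.70) and at 11.7 CPM in liver-Flcn-/- chow replicate 1 (next 7.11).

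The diet response differed between genotypes, by the interaction test, for Atf3 (-1.98) and for 13 genes of the lists given here. It was smaller or opposite in liver-Flcn-/- mice for Nupr1 (-2.15), Phgdh (-2.49), Aldh18a1 (-1.99), Slc1a4 (-2.22), Slc7a5 (-1.05), Pck2 (-2.26), Gpnmb (-2.95), Phlda3 (-1.79), Gsta1 (-2.53), Srxn1 (-1.37) and Ier3 (-1.31), and larger or opposite for Trap1 (0.45) and Klb (1.00). The Phgdh value rests on few counts on chow, 9 in all Cre libraries together and 1 to 13 in each liver-Flcn-/- library.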

How the results depend on the processing

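Results were recomputed with 22 single libraries left out and under 13 other alternatives, 3 of which (without Cre MCD replicates 3 and 4, high-Xist libraries only, low-Xist libraries only) were chosen after seeing the data. The number of members past the test ranged over the single-library omissions from 8 to 9 for MCD in Cre, 6 to 7 for MCD in liver-Flcn-/-, 1 to 1 for genotype on chow, 1 to 3 for genotype on MCD and 1 to 3 for the interaction. For genotype on MCD (2) it was 4 in the high-Xist and 0 in the low-Xist libraries. For the interaction (1) it was 2 with DESeq2, with a filter of 1 CPM in 5 libraries, without the 5 chow libraries of low uniquely mapped share and with that class as a covariate, 3 in the high-Xist and 0 in the low-Xist libraries; in the groups compared alone it could not be fitted. The low-Xist libraries number 10, and gave 63 genome-wide interaction calls against 1242 with all libraries. Other genome-wide counts that differed by over 1.5 times were 627 (high-Xist) and 335 (low-Xist) against 1212 for genotype on chow, 720 (low-Xist) against 2333 for genotype on MCD, and 4685 and 2905 (low-Xist) against 8089 and 6328 for MCD in Cre and liver-Flcn-/-.

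The replicate block left 8, 6, 1, 3 and 1 members past the test in the 5 comparisons and 552 genome-wide interaction calls; same-numbered livers did not deviate together in all pairs (correlations -0.551 to 0.470 on chow), so the numbers are not a pairing. With the block, values that changed sign were Chac1 for MCD in Cre (0.36) and the interaction (-0.65), Asns on chow (0.68) and Atf4 for the interaction (0.037).

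Every other change of sign was in a result past no test. Chac1 for MCD in Cre was 0.24 with limma-voom, 0.31 without the 5 chow libraries, 0.015 with their class as a covariate and 0.25 in high-Xist libraries (single omissions -0.27 to 0.43). Chac1 for MCD in liver-Flcn-/- was 0.0030 with that covariate and 0.55 in low-Xist libraries (-0.20 to 0.15). Chac1 for the interaction was -0.43 with limma-voom, -0.059 with the Xist class as a covariate, -0.58 without the 5 libraries, -0.012 with their class and -0.71 in high-Xist libraries (-0.47 to 0.23). Asns on chow was 0.66, 0.052, 2.10, 0.43 and 2.10 in the same order (-0.57 to 1.24). Trib3 on chow was 0.039 with limma-voom, 0.43 without the 5 libraries, 0.083 with their class and 0.43 in high-Xist libraries (-0.28 to 0.28); in low-Xist libraries Trib3 was 0.17 on MCD (-0.48 to 0.15) and 0.47 for the interaction (-0.58 to 0.23), and Atf4 was 0.13 for the interaction (-0.16 to 0.14). Sesn2 on chow was -0.089 without the 5 libraries and -0.086 in high-Xist libraries (-0.0033 to 0.28). Gdf15 for MCD in liver-Flcn-/- was 0.018 with the class covariate and 0.28 in high-Xist libraries (-0.36 to 0.049). The causes were not tested. The few libraries per Xist class and the low counts of Asns and Chac1 on chow limit the precision.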
